A study of Mus musculus with 28 samples.

Results

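The ependyma is the single-layered epithelium that lines the brain ventricles, and its cells carry tufts of motile cilia that beat and move the cerebrospinal fluid. A set of 9 genes of ependymal motile cilia was followed along the 3 axes of the mouse brain: Foxj1, Tmem212, Ccdc153, Rsph1, Dynlrb2, Fam183b, Tekt1, Rarres2 and 1110017D15Rik. They are 9 of the 20660 gene symbols that could be matched to the probes of the array, and each was chosen by name. The 9 genes had 12 probes in all, 6 of them were covered by 1 probe, and where a gene had more the probe with the highest mean level was used. All 9 passed the filter on dim probes.

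The brains came from 3 male C57BL/6J mice at 3 weeks of age, raised free of pathogens and given no treatment that the labels name. Each brain was cut along 1 plane into consecutive fractions of pooled thin sections, 12 coronal fractions from mouse 1, 6 horizontal fractions from mouse 2 and 10 sagittal fractions from mouse 3, and the RNA of each of the 28 fractions was measured on 1 single-colour array. No position was measured on more than 1 array, and plane and mouse cannot be told apart. The label of coronal fraction 12 names a further fraction that was pooled with it. The labels and the methods differ on the thickness of a fraction, so positions are given as fraction numbers.

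Motile cilia are built on an axoneme of microtubule doublets around a central pair. Dynein arms slide the doublets against each other, radial spokes pass signals from the central pair to the dyneins, and tektins stiffen the doublet wall. FOXJ1, a forkhead transcription factor, switches on the genes of this machine together with the RFX factors, which bind a palindromic element called the X-box. In the brain the ciliated ependyma lines the lateral ventricles, the third ventricle near the midline, the aqueduct and the hindbrain ventricle under the cerebellum. The choroid plexus, the tissue that secretes the cerebrospinal fluid, hangs inside all of these but the aqueduct, and genes of its epithelium were set beside the 9 for that reason, since no file gives the position of the ventricles themselves.

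The sequence just before the start of 6 of the genes is shown first because FOXJ1 and RFX sites are known in genes of this kind. RefSeq promoter windows of 300 bases (build GRCm38.p6, 250 bases before to 50 after the start) were matched for 6 of the 9 genes, 8 windows in all. They were searched on both strands for TGTTTAC (the forkhead motif), for GTTGCCA (a half-site of the X-box) and for the X-box itself, GTTNCC followed by 0 to 3 further bases and GGNAAC. The half-site shares its first letters with the X-box. The 100 bases before the start of 1 window per gene are given 5′ to 3′ on the strand of the gene, with a match in capitals; for the genes with a pair of windows the one that holds a match is shown.
Fam183b (chr11:58801961-58802060, minus strand): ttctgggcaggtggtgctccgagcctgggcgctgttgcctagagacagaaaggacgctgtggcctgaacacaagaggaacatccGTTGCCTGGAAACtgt
1110017D15Rik (chr4:41507765-41507864, minus strand): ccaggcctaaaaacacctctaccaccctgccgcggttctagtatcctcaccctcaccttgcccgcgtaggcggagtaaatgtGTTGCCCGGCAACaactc
Tekt1 (chr11:72361883-72361982, minus strand): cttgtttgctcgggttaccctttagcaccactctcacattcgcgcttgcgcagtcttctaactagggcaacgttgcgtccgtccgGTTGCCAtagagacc
Dynlrb2 (chr8:116504915-116505014, plus strand): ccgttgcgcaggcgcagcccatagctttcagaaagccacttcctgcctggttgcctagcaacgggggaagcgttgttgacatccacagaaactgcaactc
Ccdc153 (chr9:44240577-44240676, plus strand): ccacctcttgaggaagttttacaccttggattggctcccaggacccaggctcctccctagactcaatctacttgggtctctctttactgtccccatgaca
Tmem212 (chr3:27896369-27896468, minus strand): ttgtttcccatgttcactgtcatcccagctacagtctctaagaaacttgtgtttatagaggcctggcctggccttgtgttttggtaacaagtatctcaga
An X-box was found in Fam183b, as GTTGCCTGGAAAC from base -16 to base -4 before the start, and in 1110017D15Rik, as GTTGCCCGGCAAC from base -18 to base -6. Both are read as the same motif on either strand. A half-site was found in Tekt1, from base -15 to base -9. The forkhead motif was in 0 of the 8 windows. Of the 32851 promoter windows of this length, 0.804% held the X-box, 4.38% the half-site and 3.65% the forkhead motif. These are matches of letters only, and no binding was measured. The X-box pattern was matched exactly, so near matches such as gttgcctagcaac in Dynlrb2 were not counted. A window without a match may therefore still hold a looser X-box.

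A level here is the log2 processed signal of a probe less that of the 75th percentile probe of its own array, so that 0 is the brightness of the latter. Levels of different probes cannot be set against each other, so each gene is followed only across fractions. Probes well above background numbered 24822 to 34240 per array, and the 75th percentile signal ran from 135 in sagittal fraction 1 to 574. On the slides, coronal fractions 1 and 2 lay with all horizontal fractions, coronal fractions 3 to 10 on a slide of their own, coronal fractions 11 and 12 with sagittal fractions 5 to 10, and sagittal fractions 1 to 4 on a slide of their own. In the coronal series the mean of the 6 tested genes of a hindbrain list was highest in fraction 1, that of a hypothalamus list in fraction 7, that of a striatum list in fraction 8 and that of an olfactory bulb list in fraction 12 (single genes could peak elsewhere, as Pomc in fraction 11), so the series ran from caudal to rostral. The horizontal series ran from dorsal to ventral, as the mean of the cerebral cortex genes peaked in fraction 1 and that of the hypothalamus genes in fraction 6. From side to side, the mean of the hypothalamus genes was highest in fractions 5 and 6, though Avp and Pmch peaked in fraction 4 and Pomc in fraction 1. The midline was taken as the centre of the series, position 5.5.

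**Figure D1:**
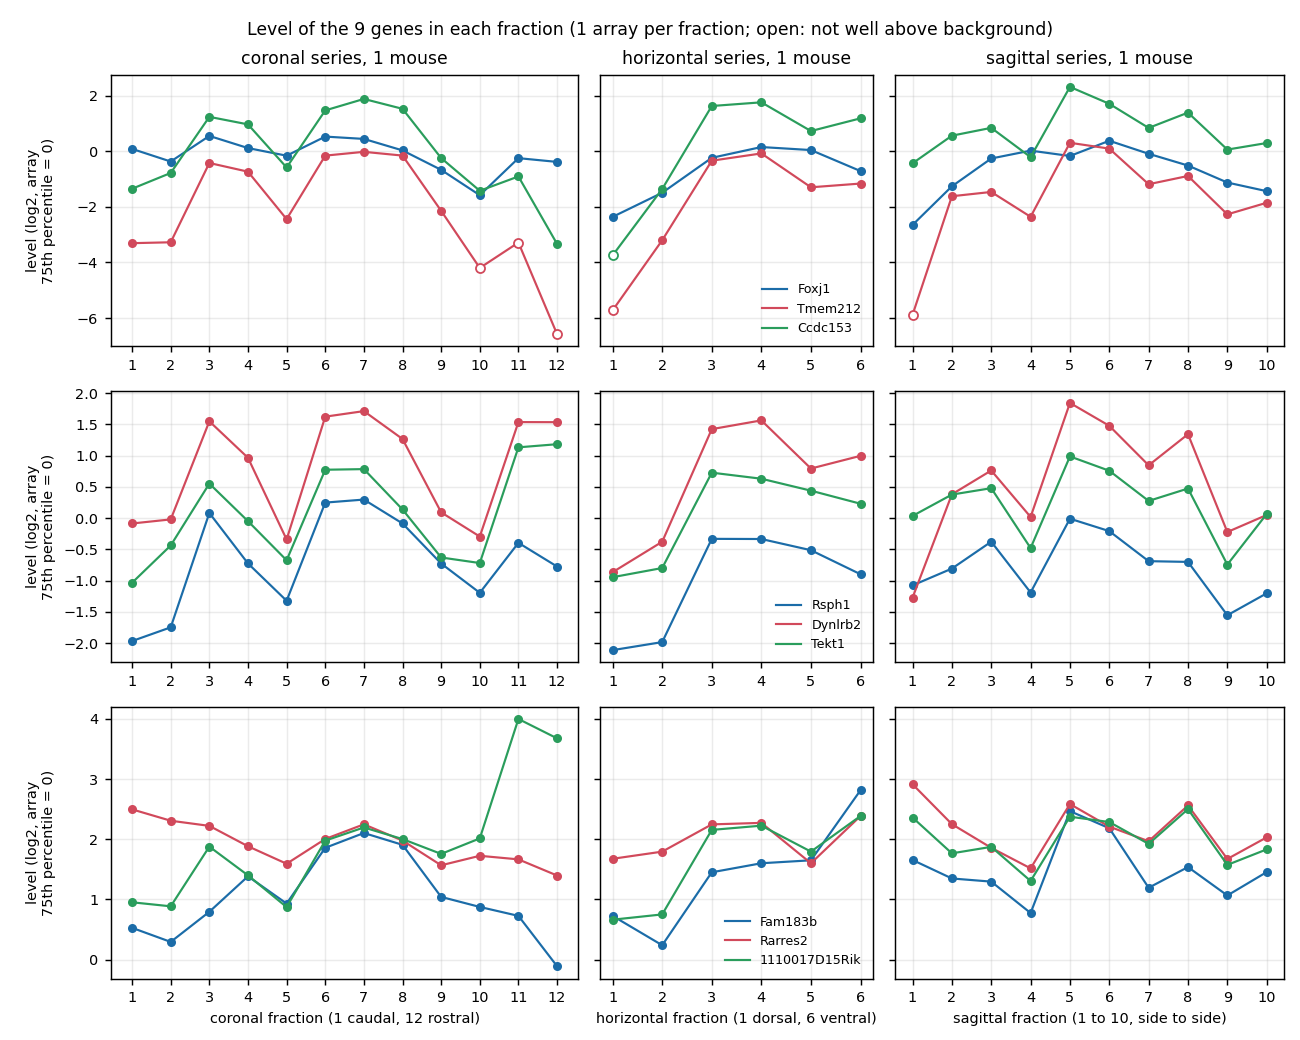
Level of each of the 9 genes (log2, array 75th percentile at 0) against fraction number in the coronal, horizontal and sagittal series, 1 point per array, with open points where the probe was not well above background. Most genes have a caudal high at coronal fraction 3, a broader one at fractions 6 to 8, a high at horizontal fractions 3 and 4, and a high at sagittal fractions 5 and 6.

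Along the caudal to rostral axis most of the 9 genes were high in 2 places, at fraction 3 and at fractions 6 to 8, with a dip between them. In 8 of 9 genes, all but Fam183b, the level in fraction 5 was below both fraction 3 and fraction 6, an order that 25.1% of all tested probes had. Tmem212, Ccdc153, Rsph1, Dynlrb2 and Fam183b were highest in fraction 7, Foxj1 in fraction 3, Rarres2 in fraction 1, 1110017D15Rik in fraction 11 and Tekt1 in fraction 12. Under array median scaling Foxj1, Tmem212 and Rsph1 were instead highest in fraction 6 and Dynlrb2 in fraction 12. The level in fraction 7 was above that in fraction 10 in 9 of 9 genes, against 46.0% of tested probes. These orders, like those counted in the other series, were noticed in the values and are descriptions without a test. In tissue fractions like these, fewer ciliated cells and less RNA per cell cannot be told apart.

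Foxj1, the transcription factor at the head of the programme, ran from -1.58 in fraction 10 through a median of -0.06 to 0.56 in fraction 3. Its levels in fractions 3, 6 and 7 were 0.56, 0.53 and 0.45, while fractions 2 and 5 held -0.36 and -0.15, and the level fell off to -0.66 and -1.58 in fractions 9 and 10. The highest level was 4.39-fold the lowest.

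Rsph1, a protein of the radial spoke head, was lowest in fractions 1 and 2, at -1.97 and -1.75, and reached 0.08 in fraction 3, 0.25 in fraction 6 and 0.30 in fraction 7. Between them it stood at -1.32 in fraction 5. Dynlrb2, a roadblock light chain of dynein, stood at 1.55 in fraction 3, at its lowest, -0.34, in fraction 5, and at 1.71 in fraction 7. Unlike Rsph1 it was not lowest at the caudal end, with -0.09 and -0.02 in fractions 1 and 2, and it came back to 1.54 in both of fractions 11 and 12. Tekt1, a tektin of the doublet microtubules, stood at 0.55, -0.67 and 0.79 in fractions 3, 5 and 7. For these 3 axonemal genes the highest level was between 4.16-fold and 4.81-fold the lowest.

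Ccdc153, a coiled-coil protein used as an ependymal marker, had the largest fold with both ends well above background, 37.3-fold between 1.89 in fraction 7 and -3.33 in fraction 12. Its level was 1.24 in fraction 3 and -0.58 in fraction 5. Tmem212, a membrane protein used as an ependymal marker, ran from -0.42 in fraction 3 to -2.44 in fraction 5 and back to -0.02 in fraction 7. It was not well above background in fractions 10, 11 and 12, which makes fraction 7 at least 23.6-fold higher than fraction 12. The 2 marker genes thus spanned the widest ranges of the 9 in this series.

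Fam183b, a small ciliary protein, stood at 0.80 in fraction 3, 1.38 in fraction 4 and 0.93 in fraction 5, so its caudal high lay in fraction 4, and at 1.86, 2.10 and 1.91 in fractions 6 to 8. Rarres2, which encodes the secreted chemoattractant chemerin and is no part of the axoneme, moved least, from 2.50 in fraction 1 to 1.40 in fraction 12, or 2.14-fold. 1110017D15Rik stood at 1.88 in fraction 3, 0.87 in fraction 5 and 2.20 in fraction 7, and then at 4.00 and 3.68 in fractions 11 and 12.

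At the rostral end the genes parted. From fractions 9 and 10 to fractions 11 and 12 the mean level was 1.95 higher for 1110017D15Rik, 1.83 higher for Tekt1, 1.64 higher for Dynlrb2, 0.81 higher for Foxj1 and 0.38 higher for Rsph1, and in the first 4 of these both rostral fractions were above both of the others, as in 22.6% of tested probes. The mean level differed by -1.29 for Ccdc153 and -0.65 for Fam183b, while Tmem212 was not well above background in fractions 10 to 12 and has no measured difference. Under array median scaling the difference of Rarres2 turned from -0.11 to 0.17, and the other 7 measured genes kept their sign, though that of Fam183b moved to -0.37 and that of Rsph1 to 0.66. With normexp that of Ccdc153 was -0.67. Both rostral fractions were above both of fractions 9 and 10 in 6 of 9 genes under array median scaling, against 35.3% of tested probes. A second probe of 1110017D15Rik, designed on another transcript of the gene, also rose at the rostral end. It stood at -2.42 and -3.48 in fractions 9 and 10, the latter not well above background. In fractions 11 and 12 it stood at -1.06 and -1.68, no higher than the -1.05 of fraction 3. Its r with the used probe over the 12 fractions was 0.57. The second probe of Tekt1 followed the first, with an r of 0.99. That of Rsph1, on the same transcript, did so less closely, with an r of 0.66, 0.80 and 0.38 in the coronal, horizontal and sagittal series, and was highest in coronal fraction 10.

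Genes of other tissues also stood apart in these 2 rostral fractions, and their part in the difference was not tested. Omp, a marker of olfactory sensory neurons whose axons end in the olfactory bulb, was at 7.02 and 7.04 in fractions 11 and 12 against -2.49 in fraction 9. Of the 7 nasal mucosa genes, 3 and 5 were well above background in fractions 11 and 12, within the 3 to 5 of fractions 1 to 10. Bpifa1 and Reg3g were not well above background in either of fractions 11 and 12. The summed level of the 7 genes, in units of the 75th percentile signal, was 0.832 to 3.41 in fractions 1 to 10 and 130 and 132 in fractions 11 and 12; without Omp it was 0.489 and 0.411 there and 0.406 to 0.868 in the other 10. The 6 genes of a meningeal fibroblast list, all well above background in every coronal fraction, were on average 0.55 and 1.35 above their series mean in fractions 11 and 12, with a summed level of 36.1 and 72.9 against 14.2 to 30.2 in fractions 1 to 10. A list of subventricular zone and neuroblast genes was 2.46 and 2.44 above its series mean in these fractions. Fractions 11 and 12 were also on another slide than fractions 3 to 10.

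A smooth curve over the 12 fractions was tested for each probe with limma. Of the 9 genes, 5 changed with position after Benjamini-Hochberg adjustment over 32364 probes, where 33.7% of all tested probes passed. Tmem212 was among them (adjusted p = 0.00776), but its fit rests in part on the 3 fractions where it was not well above background, so no range is given for it. The fitted range was 4.37 for Ccdc153 (adjusted p = 0.0119), 2.96 for 1110017D15Rik (adjusted p = 0.0102), 1.88 for Fam183b (adjusted p = 0.00682) and 1.13 for Rarres2 (adjusted p = 0.0323). The adjusted p was 0.259 for Foxj1, 0.148 for Rsph1, 0.198 for Tekt1 and 0.552 for Dynlrb2. With 5 in place of 3 degrees of freedom, an alternative chosen after seeing the data, 4 genes passed, none of these among them (adjusted p 0.0949 to 0.209), and Rarres2 did not (adjusted p = 0.0559). With slide as a term, 0 of the 9 genes passed, where limma called 241 probes in all and 5410 had an unadjusted p under 0.05. Within fractions 3 to 10, which share a slide, Foxj1 (adjusted p = 0.0195) and Tmem212 passed, and without fraction 12 the adjusted p of Tmem212 and Ccdc153 was 0.0621 and 0.0762.

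Along the dorsal to ventral axis the genes were low in the 2 dorsal fractions and high in the middle of the brain. Fractions 3 and 4 were both above fractions 1 and 2 in 9 of 9 genes, against 22.7% of tested probes, and this held in 9 of 9 under each of the 4 scalings tried. Fractions 5 and 6 were above fractions 1 and 2 as well in 8 of 9 genes, all but Rarres2, against 6.38% of tested probes, and under array median scaling in 7 of 9, all but Foxj1 and Rarres2, against 2.34%. The mean of fractions 3 and 4 exceeded that of fractions 1 and 2 by at least 3.22 for Tmem212 and at least 4.20 for Ccdc153, neither well above background in fraction 1, and by 2.12 for Dynlrb2, 1.89 for Foxj1, 1.72 for Rsph1, 1.55 for Tekt1, 1.48 for 1110017D15Rik, 1.04 for Fam183b and 0.52 for Rarres2. The first 2 of these depended on the background correction, with 1.95 for Tmem212 and 3.00 for Ccdc153 after normexp, below both bounds. The cortex lies above the ventricles, and the mean of its genes was highest in the dorsal fraction 1.

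Foxj1 stood at -2.36, -1.49, -0.23, 0.16, 0.05 and -0.71 from fraction 1 to fraction 6, so it was highest in the middle of the brain and lower again at its base. Ccdc153 stood at -3.74, -1.35, 1.63, 1.77, 0.73 and 1.19. It was not well above background in fraction 1, and fraction 4 was at least 42.4-fold higher. Tmem212, also not well above background in fraction 1, had -3.20 in fraction 2, -0.07 in fraction 4, at least 11.8-fold above fraction 1, and -1.16 in fraction 6.

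The 3 axonemal genes differed little in outline. Dynlrb2 stood at -0.87 and -0.38 in the dorsal pair and at 1.43 and 1.57 in fractions 3 and 4, a 5.39-fold range. Rsph1 had -2.11 and -1.99 against -0.33 in both of fractions 3 and 4, and Tekt1 -0.95 and -0.80 against 0.73 and 0.63. All 3 were lower in fraction 6 than in fraction 4. Fam183b, Rarres2 and 1110017D15Rik were instead highest in the ventral fraction 6, at 2.81, 2.39 and 2.39. For Rarres2 and 1110017D15Rik this depended on the scaling, and under array median scaling fraction 4 was the highest in 8 of 9 genes, all but Fam183b.

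Of the 9 genes, 3 changed with position in the horizontal series, where 15.8% of all tested probes passed. The fitted range was 2.62 for Foxj1 (adjusted p = 0.0199). Tmem212 (adjusted p = 0.0207) and Ccdc153 (adjusted p = 0.0223) also passed, but 1 of the 6 levels behind each fit, that of fraction 1, was not well above background, so no range is given for them. The adjusted p was 0.0525 for Dynlrb2, 0.0601 for Rsph1, 0.0645 for Fam183b, 0.0660 for Tekt1, 0.0851 for 1110017D15Rik and 0.604 for Rarres2. With array median scaling and with normexp background correction, 8 of 9 genes passed, all but Rarres2, but the share of all tested probes that passed rose as well, to 59.8% and 28.0%. Leaving out fraction 3, or fraction 4, left limma with 0 probes called on the whole array (10053 and 7679 probes had an unadjusted p under 0.05).

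From side to side the genes were highest next to the midline. Fractions 5 and 6 were both above all 8 others in Tmem212, Ccdc153, Rsph1, Dynlrb2, Fam183b and Tekt1, 6 of 9 genes, against 5.62% of tested probes. Under array median scaling this order held in 7 of 9 genes, all but Foxj1 and Rarres2, against 8.60% of tested probes. The second probe of Rsph1 did not show this order, with -3.37 in fraction 5 and -3.03 in fraction 3. Ccdc153 reached 2.32 and 1.71 in fractions 5 and 6 and ran from -0.43 to 1.40 in the others. Tmem212 stood at 0.31 and 0.10 against at most -0.88, and Dynlrb2 at 1.85 and 1.48 against at most 1.34. Fraction 8 was above both of its neighbours in 7 of 9 genes, all but Foxj1 and Rsph1, against 33.7% of tested probes. Its neighbour fraction 9 had a low 75th percentile signal, 176. Like the other orders counted in this series, this one was noticed in the values and is a description without a test.

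Fraction 4 was a low point on the other side. It was below fractions 3 and 5 in 8 of 9 genes, all but Foxj1, against 31.3% of tested probes, with -2.35 for Tmem212, -1.19 for Rsph1 and -0.48 for Tekt1. With normexp and with the array median the order held in 8 of 9 genes as well, against 46.6% and 22.6% of tested probes. Between fractions 4 and 5 the slide also changed, and its part in the step was not tested apart from the fits below. Within the slide that holds fractions 5 to 10, fraction 6 was above fraction 7 in 9 of 9 genes, against 46.9% of tested probes, and fractions 5 and 6 were above fractions 7 to 10 in 6 of 9 genes, against 13.9%. These shares moved with the scaling: with the array median they were 69.8% of tested probes for the first order and 34.9%, with 8 of 9 genes, for the second.

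Foxj1 had the smallest scatter around its fitted curve of the 9 genes (residual SD 0.26). Its level went from -2.65 in fraction 1 through -1.26, -0.26, 0.03 and -0.17 to 0.38 in fraction 6, and down through -0.09, -0.51 and -1.12 to -1.43 in fraction 10. Its highest level was 8.17-fold the lowest. Rarres2 ran the other way at the edge, with its highest level, 2.91, in fraction 1, and 1110017D15Rik was highest in fraction 8, at 2.50, with 2.36 in fraction 1. Under array median scaling both were highest in fraction 5, as were 8 of 9 genes, all but Foxj1.

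The slope of the level on the distance from the midline was tested with limma over the 10 sagittal fractions, a negative slope standing for a level higher nearer the midline. Of the 9 genes, 4 were higher nearer the midline and 0 lower, where 7.72% of all tested probes were higher and 13.1% lower. The slope per fraction was -0.55 for Foxj1 (SE 0.09, adjusted p = 0.00957), -0.83 for Tmem212 (SE 0.25, adjusted p = 0.0392), -0.49 for Dynlrb2 (SE 0.12, adjusted p = 0.0233) and -0.42 for Ccdc153 (SE 0.13, adjusted p = 0.0475). It was -0.23 for Rsph1 (SE 0.08, adjusted p = 0.0670), -0.17 for Tekt1 (SE 0.10, adjusted p = 0.238), -0.13 for Fam183b (SE 0.10, adjusted p = 0.364), -0.04 for 1110017D15Rik (SE 0.09, adjusted p = 0.751) and 0.04 for Rarres2 (SE 0.10, adjusted p = 0.798). The slope of Tmem212 includes fraction 1, where it was not well above background. The Foxj1 call held in 10 of 10 fits that left out 1 fraction, with adjusted p of at most 0.0281. Those of Tmem212, Ccdc153 and Dynlrb2 held in 5, 2 and 7 of 10, and without fraction 1, the fraction with the lowest signal, Foxj1 alone of the 9 passed. With slide as a term Foxj1 and Dynlrb2 passed, and Tmem212 and Ccdc153 did not (adjusted p = 0.0567 and 0.0730); with the 4 fractions nearest the midline set against the other 6, 0 of the 9 passed, where limma called 48 probes in all and 8059 had an unadjusted p under 0.05.

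As a smooth curve over the 10 fractions, only Foxj1 changed with position (fitted range 2.75, adjusted p = 0.00953), 1 of 9 genes where 14.7% of all tested probes passed. Without fraction 1 its adjusted p was 0.110, where limma called 0 probes of the whole array (5955 had an unadjusted p under 0.05). Within fractions 5 to 10 of 1 slide neither the curve nor the slope passed for any of the 9 genes; limma called 0 probes of the whole array there by either, with 2330 and 6223 under an unadjusted p of 0.05.

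**Figure D2:**
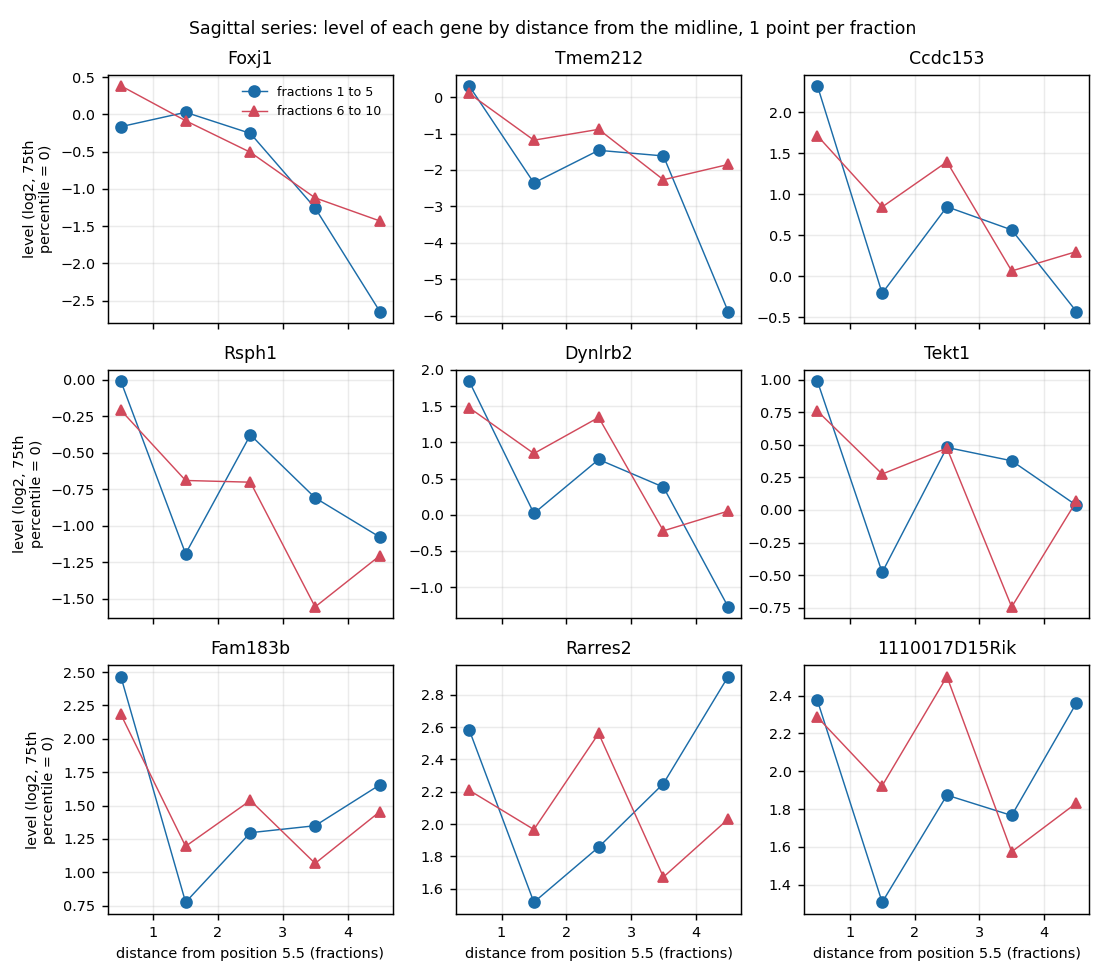
Level of each gene (log2, array 75th percentile at 0) against distance from sagittal position 5.5 in fractions, 1 point per fraction, circles for fractions 1 to 5 and triangles for fractions 6 to 10. In 6 genes both points nearest the midline lie above the 8 others, while the Foxj1 level is lowest at the greatest distance on each side and that of Rarres2 is not.

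The 9 genes were compared with the mean profile of 14 choroid plexus genes. The choroid plexus genes had their own 2 coronal highs, 2.54 above their series mean in fraction 3 and 1.61 and 1.71 above it in fractions 6 and 7, with -1.03 in fraction 5 between them. The mean of the 9 genes was highest in fractions 7 and 6, at 1.00 and 0.86. The choroid plexus was thus highest in the caudal place, whereas 7 of 9 ependymal genes, all but Foxj1 and Rarres2, stood higher in both of fractions 6 and 7 than in fraction 3, an order that 39.4% of tested probes had.

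Over the 12 coronal fractions the Pearson r with the choroid plexus profile was 0.76 for Ccdc153, 0.72 for Tmem212, 0.71 for Foxj1, 0.67 for Rsph1, 0.61 for Dynlrb2, 0.53 for Rarres2, 0.48 for Fam183b, 0.46 for Tekt1 and -0.09 for 1110017D15Rik. The median of the 9 was 0.61, against -0.01 over all tested probes, and 3 of 9 were over 0.7 against 0.652% of tested probes. Over fractions 1 to 10 alone r was 0.92 for Tekt1, 0.86 for Dynlrb2 and 0.44 for 1110017D15Rik, against 0.46, 0.61 and -0.09 with fractions 11 and 12 included, while it was 0.39 for Fam183b and 0.44 for Rarres2, both lower than with them, and 0.71 to 0.78 for the other 4. Of the lists of other tissues and brain regions, that of the hypothalamus came next in this series, with a median r of 0.43. Spearman rho is shown beside r in the plot of likeness. Fractions of 1 brain are neighbours and share its RNA preparation, so these correlations are descriptions and carry no p.

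In the horizontal series the choroid plexus genes were high in fractions 3 to 5, at 1.04, 1.16 and 1.53 above their series mean, and the median r of the 9 genes was 0.86 over 6 fractions, against -0.12 over all tested probes. Of the 9 genes, 7 were over 0.7 against 9.59% of tested probes. The likeness was not particular to the choroid plexus, as the median r with the mean profile of 6 striatum genes was 0.88. In the sagittal series the choroid plexus was spread more to the sides, highest in fraction 3 at 1.28 with 0.88 and 1.00 in fractions 5 and 6 and 0.95 in fraction 8, and the median r was 0.54 over 10 fractions against -0.16 over all tested probes. There too other lists came as close, with a median r of 0.57 for the subventricular zone and neuroblast genes, 0.54 for the olfactory bulb genes and 0.52 for the cerebellum genes. Tmem212, Foxj1 and Dynlrb2 had an r with the choroid plexus of 0.92, 0.91 and 0.87 there, and Rarres2 one of -0.42. Sagittal fraction 1, where the choroid plexus genes were 3.70 below their mean, 6 of the 14 were well above background and the array signal was lowest, is 1 of the 10 points. By rank, rho was 0.76 for Tmem212 and Tekt1, 0.78 for Dynlrb2 and 0.71 for Foxj1.

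**Figure D3:**
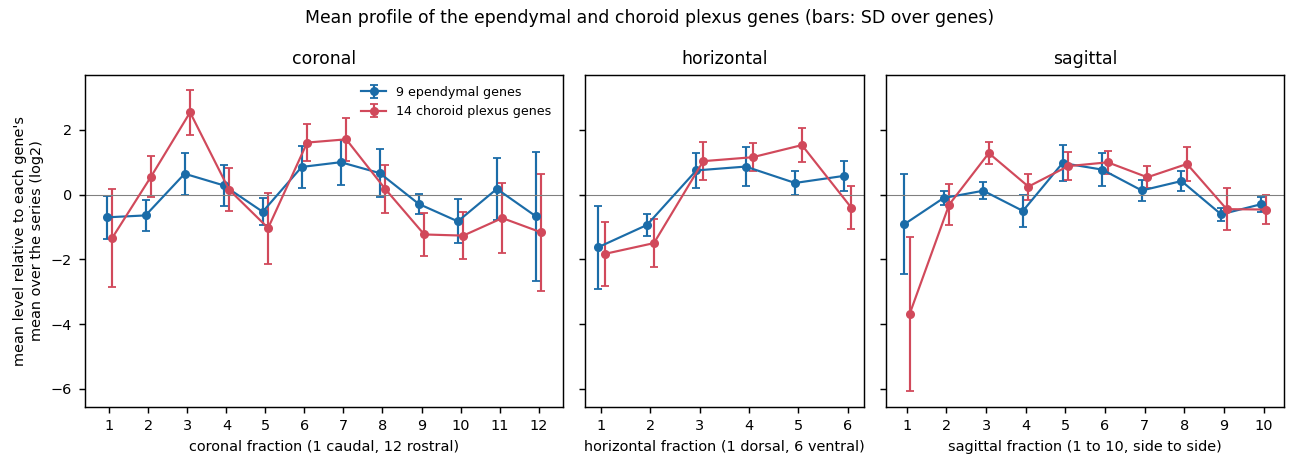
Mean level of the 9 ependymal genes and of 14 choroid plexus genes, each gene taken relative to its own mean over the series (log2), against fraction number; bars are the SD over genes. Both sets have 2 coronal highs with a low at fraction 5, the choroid plexus highest in fraction 3 and the ependymal genes in fraction 7.

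**Figure D4:**
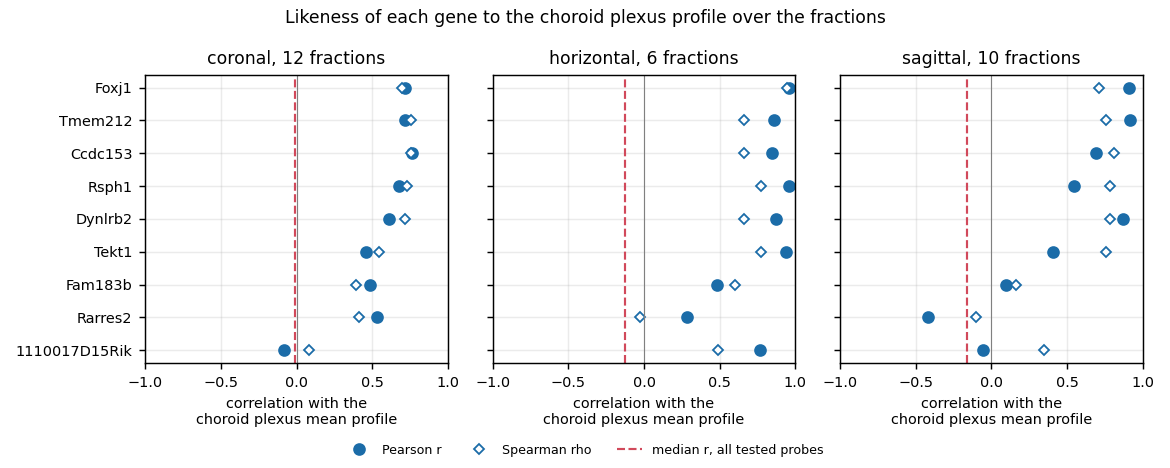
Pearson r (filled) and Spearman rho (open) of each of the 9 genes with the choroid plexus mean profile over the fractions of each series, with the median r of all tested probes as a dashed line. In the coronal series 8 of the 9 genes have a positive r, and 1110017D15Rik one of -0.09.

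Among themselves the 9 genes had a median r over their 36 pairs of 0.92 across the 6 horizontal fractions. It was 0.63 across the 10 sagittal and 0.45 across the 12 coronal fractions, and the lowest pair reached -0.51 in the coronal series. A high r is easier to reach over fewer fractions, and pairs of other probes were not set beside these. The series can therefore not be ranked by these values. With the mean profile of the 9 over all 28 fractions, which each of them helped to make, r ran from 0.93 for Ccdc153, 0.91 for Rsph1 and 0.89 for Dynlrb2 and Tmem212 down to 0.43 for 1110017D15Rik and 0.35 for Rarres2. Of the other genes on the array the 10 most like this profile over the 28 fractions, each centred within its series, were Dnali1 (r 0.96), 1700094D03Rik (0.94), Mlf1 (0.94), Spaca9 (0.92), Ppp1r32 (0.92), Crygn (0.91), Fam166c (0.91), Wdr63 (0.90), Tctex1d4 (0.88) and 1700007K13Rik (0.88). Dnali1 was highest in coronal fraction 6, horizontal fraction 4 and sagittal fraction 5, and its level ranged over 2.68 in the sagittal series. It was well above background in 11 of 12 coronal and 4 of 6 horizontal fractions, so no range is given for these. Of 15551 named symbols compared, 14 had an r over 0.85.

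Other genes of the cilium did not follow as one. The lists name 57 tested genes of ciliogenesis regulators, axonemal dyneins, radial spoke and central pair, and tektins and other axonemal proteins, and their median r with the profile of the 9 was 0.32, against -0.06 over all tested probes. The mean profile of the 17 genes of axonemal dyneins and their assembly had an r with that of the 9 of 0.94, 0.95 and 0.94 in the coronal, horizontal and sagittal series. The 10 radial spoke and central pair genes had 0.41, -0.63 and -0.21.

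**Figure D5:**
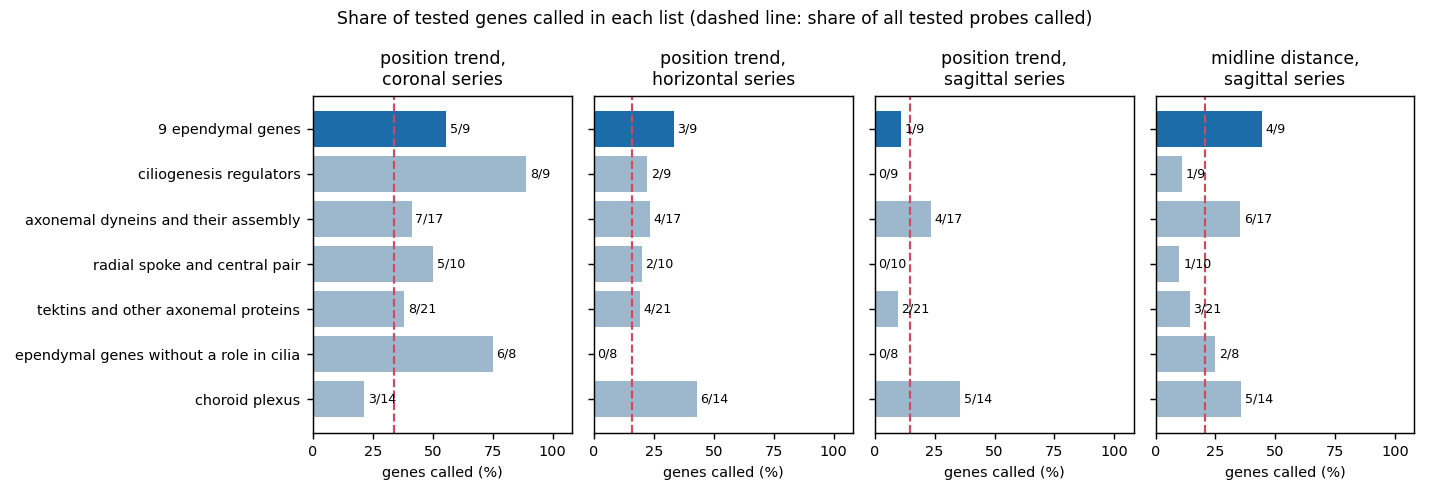
Percent of tested genes called by limma in each list (bars, with called over tested genes) for the position trend in the 3 series and the midline slope in the sagittal series; the dashed line is the percent of all tested probes called. The 9 ependymal genes stand at 5, 3, 1 and 4 genes called.

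Of the ciliogenesis regulators, 8 of 9 tested genes changed along the coronal axis, 2 in the horizontal series and 0 in the sagittal, where 1 had an unadjusted p under 0.05; of all tested probes 33.7%, 15.8% and 14.7% passed in these series. Nearer the midline 1 was higher, Deup1 (slope -0.30, SE 0.08, adjusted p = 0.0291), and 0 lower, beside 7.72% and 13.1%. Fank1 and Ccno, a cyclin of multiciliated cell formation, were highest in coronal fraction 7, at -0.15 and -0.21 against lows of -2.36 and -2.67 (adjusted p = 0.00410 and 0.0228). Rfx4, an RFX factor also active in neural progenitors and astrocytes, was highest in fraction 1 at 0.89 (adjusted p = 0.0110), and the probe assigned by accession to Mcidas, a regulator of multiciliated cell fate, in fraction 8 at 7.27 (adjusted p = 0.00116). Whether this very bright probe measures Mcidas alone was not checked. Its highest levels in the other series were in sagittal fraction 9 (9.29) and horizontal fraction 6 (8.56), whereas the mean of the 9 was highest in fractions 5 and 4.

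Of the axonemal dynein and assembly genes, 7 of 17 (41.2%) changed in the coronal, 4 (23.5%) in the horizontal and 4 in the sagittal series, beside 33.7%, 15.8% and 14.7% of all tested probes. Nearer the midline 6 (35.3%) were higher and 0 lower, beside 7.72% and 13.1% of all tested probes. Among the 6, Dnah10 was well above background in 5 of 10 sagittal fractions, and Dnah2, Dnah11 and Dnaic2 in 7 of 10. The slopes of these genes rest in part on levels that were not well above background. Dnah5, an outer arm heavy chain, was highest in coronal fraction 6 at -2.75 (adjusted p = 0.000185) and was well above background in 7 of 12 fractions, so its range has no measured lower end. Ccdc103 and Ccdc151, which attach dynein arms, were both highest in fraction 9 (adjusted p = 0.000958 and 0.0250). Dnal1, an outer arm light chain, was highest in fraction 10 at 0.13 and lowest in fraction 2 at -3.68 (adjusted p = 0.00190), away from the places where the 9 genes were high.

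Of the radial spoke and central pair genes, 5 of 10 changed in the coronal, 2 in the horizontal and 0 in the sagittal series, where 1 had an unadjusted p under 0.05, beside the same shares of all probes. Nearer the midline 0 were higher and 1 lower, Cfap206 (slope 0.32, SE 0.10, adjusted p = 0.0438), beside 7.72% and 13.1%. Cfap206 was well above background in 7 of 10 sagittal fractions. Spag6l, a central pair protein, was highest in coronal fraction 7 (-0.23, lowest -2.91, adjusted p = 0.00134). Rsph4a, a spoke head partner of Rsph1, was highest in coronal fraction 6 at -1.45 (adjusted p = 0.000119) but its highest levels in the other series were 1.81 in sagittal fraction 9 and 1.04 in horizontal fraction 6. A list of sperm genes, 5 of 12 of them tested, was also highest in these 2 fractions, 1.40 and 1.05 above its series mean. Of the 12, 5 were well above background in each, against 6 in sagittal fraction 2 and in horizontal fractions 2 and 3. That count thus does not mark these 2 fractions. The part of sperm genes in the levels of Rsph4a and of the Mcidas probe was not tested. Array median scaling lowered these 2 fractions most within their series, where its shifts spanned 1.51 (sagittal) and 1.06 (horizontal). The levels of Rsph4a and of the Mcidas probe under that scaling are not given here. Rsph9 and Cfap206 were highest in coronal fractions 11 and 10 (adjusted p = 0.00177 and 0.00477), Cfap206 well above background in 5 of 12 fractions, so that its fit rests mostly on levels that were not.

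Of the tektins and other axonemal proteins, 8 of 21 (38.1%) changed in the coronal, 4 (19.0%) in the horizontal and 2 (9.52%) in the sagittal series, near the shares of all tested probes, and 2 were higher and 1 lower nearer the midline, beside 7.72% and 13.1%. Ccdc113 and Cfap45 were highest in coronal fraction 7, at 0.47 and 0.43, and lowest in fraction 12, at -3.27 and -2.03 (adjusted p = 0.000351 and 0.000748). Tppp3, which bundles microtubules, was highest in coronal fraction 1 at 4.79 (adjusted p = 0.000285), and Drc1, of the dynein regulatory complex, in fraction 9 at 2.95 (adjusted p = 0.000277).

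Ependymal genes with no role in cilia were set beside the 9, but whether other cells of the fractions also express them was not tested. Of this list Calml4 alone was among the 100 symbols most like the mean profile of the 9, with an r of 0.75. The r of their mean profile with that of the 9 was 0.14 in the coronal, 0.90 in the horizontal and 0.75 in the sagittal series, and 6 of 8 changed in the coronal, 0 in the horizontal and 0 in the sagittal series, where 3 and 2 had an unadjusted p under 0.05, beside 33.7%, 15.8% and 14.7% of all tested probes. Nearer the midline 1 was higher, Cd24a, and 1 lower, Trim71, beside 7.72% and 13.1%. Vim, an intermediate filament protein, and Cd24a, a surface glycoprotein, were highest at the rostral end, in fractions 12 and 11 at 3.82 and 3.09 (adjusted p = 0.00106 and 0.00446), Dbi in fraction 11 (adjusted p = 0.0169) and Prom1 in fraction 2 (adjusted p = 0.00651). Of the choroid plexus genes 3 of 14 changed in the coronal series (21.4%, below the 33.7% of all tested probes), 6 in the horizontal (42.9%, above 15.8%) and 5 in the sagittal (35.7%, above 14.7%). Nearer the midline 5 were higher (35.7%, above 7.72%) and 0 lower, the 5 being Kl, Slc4a5, Prlr, Cldn2 and Lmx1a. Prlr and Lmx1a were well above background in 9 and 6 of 10 sagittal fractions. Otx2, a transcription factor of the choroid plexus, was highest in fraction 3 at 2.43 (adjusted p = 0.00242), Prlr, the prolactin receptor, in fraction 6 at 0.37 (adjusted p = 0.00358) and Lmx1a, a roof plate factor, in fraction 3 at -1.47 (adjusted p = 0.00733), the last 2 well above background in 9 and 6 of 12 fractions. Sostdc1, at 1.21 in fraction 3, did not pass (adjusted p = 0.0587).

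Genes of the specialised lining of the third ventricle differed among themselves. Dio2, the deiodinase of tanycytes and astrocytes, was highest in coronal fraction 10 at 4.17 (adjusted p = 0.00319), and Sspo, made by the subcommissural organ, in coronal fraction 6 at -2.43 (adjusted p = 0.0444) and in sagittal fraction 4 at -2.66 (adjusted p = 0.00953), well above background in 8 of 12 and 6 of 10 fractions. Rax, a factor of tanycytes, was highest in the ventral horizontal fraction 6 at -2.44 and was well above background in 1 of 6 fractions there (adjusted p = 0.190).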

How the data were processed

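RNA of 28 brain fractions was labelled with Cy3 and hybridised to single-colour Agilent arrays. The deposited scanner files of the authors hold, per the file headers, spot intensity processed by Agilent Feature Extraction 10.5.1.1 with its background subtracted; the genome build of the headers was not used for positions. The authors also deposited a table of log2 values for 44721 probes, which equalled the levels computed here apart from an offset of at most 0.00758 per array and a deviation of at most 2.32e-06 over 44258 probes of 1 spot. The medians of its columns ran from -2.63 to -1.63.

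Control spots and the 108 to 176 outlier spots per array were left out, no spot was saturated, and spots of a probe were averaged as log2 intensity minus the array's 75th percentile. Of 55681 probes, 27235 (48.9%) were named by RefSeq accession (symbols of GRCm38.p6). The 32364 probes tested were well above background (in at least a share of 0.5 of their spots) on at least 1 array of each series and had a value on every array. The number of arrays limits the precision.

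limma 3.58.1 in R 4.3.3 fitted each series alone: an F-test of a natural spline over fraction numbers (3 degrees of freedom, 2 in the horizontal series), and the slope on distance from sagittal position 5.5, with Benjamini-Hochberg adjustment over all tested probes and a threshold of 0.05. The error is the scatter of single arrays of 1 mouse around a curve, not a spread between animals. The scripts were tested on simulated data. Other calculations and plots used Python 3.11.15, pandas 2.3.3 and matplotlib 3.10.9. Alternatives changed the scaling, background correction, probe choice, filter, slide, curve and fractions. normexp (offset 50) took the median foreground signal, since the mean foreground was not used here.

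The genes named are the 9 members, at most 4 per other list with the smallest adjusted p of the coronal trend, and the 10 most like the mean profile. Calml4 was named besides, for its likeness to the 9. Landmark and tissue lists and single fractions outside that rule were chosen to show where a level lies, after values were seen. The 9 genes and all lists were chosen with earlier results of these data known. A fold against a probe not well above background is a lower bound, set against the lowest level well above background on that array.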

Additional observations from a re-analysis of the deposited data

Results flagged for a closer look

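In 18 sets of fractions (9 genes in the horizontal and sagittal series) the highest or lowest level was compared with its nearest neighbour. In the sagittal series the level of Tmem212 in fraction 1, -5.89, lay apart from the other 9, of which the lowest was -2.35, and the gap was 0.57 of the whole range. Its probe was not well above background there. Chance alone gives about 1 in 20 such sets, or 0.9 of 18.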

How the results depend on the processing

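No paired analysis was possible because no test compared the planes and fraction numbers of different planes name different places. The count of the 9 genes that changed along the coronal axis, 5 as reported, was 0 with slide as a term (0.745% of all tested probes passed), 2 within the fractions of 1 slide (12.9%) and 2 without fractions 11 and 12 (8104 probes in all, chosen after seeing the data), and 2 to 6 when each fraction was left out in turn, the 2 without fraction 12. For the horizontal series, 3 as reported, it was 8 with array median scaling (59.8% of all tested probes passed), 6 with quantile normalization (21.2%), 8 with normexp (28.0%), 5 with the mean of all probes of a gene (15.6%), 0 with 1 degree of freedom fewer (1 probe in all), and 0 to 3 without single fractions (1 without fraction 1, 0 without fraction 3 or 4). For the sagittal series, 1 as reported, it was 2 with normexp (44.2%), 2 with no filter on dim probes (34.5%), 2 with 1 degree of freedom fewer (12.7%), 0 within 1 slide (0%) and 0 to 3 without single fractions (0 without fraction 1, 3 without fraction 4, 2 without fraction 2, 9 or 10). The count with a midline slope, 4 as reported, was 1 with no filter (1.62% of all probes were higher nearer the midline), 2 with slide as a term (7.45%), 0 within 1 slide (0%), 0 for the 4 nearest fractions against the other 6 (0.133%), and 1 to 5 without single fractions (1 without fraction 1, 5 or 6, 2 without fraction 3 or 7). The share of all tested probes called without single fractions ran from 24.5% to 34.4% (coronal), 0% to 17.8% (horizontal), 0% to 47.1% (sagittal) and, higher nearer the midline, 1.90% to 11.7%. The cause was not tested. The midline slope of Rarres2, 0.04, became -0.13 with array median scaling, -0.014 with normexp and -0.11 within 1 slide, and ran from -0.060 (without fraction 1) to 0.11 without single fractions. That of 1110017D15Rik, -0.04, became 0.012 for the 4 nearest fractions against 6 and ran from -0.11 (without fraction 1) to 0.0033 (without fraction 5) without single fractions; none of these passed. Array median scaling, which shifts the arrays of a series against each other by up to 0.52 (coronal), 1.06 (horizontal) and 1.51 (sagittal), kept 5 of 9 highest fractions in the coronal and 5 of 9 in the horizontal series. The median r with the choroid plexus profile stayed within 0.55 to 0.69 (coronal), 0.78 to 0.94 (horizontal) and 0.50 to 0.67 (sagittal) without single fractions. normexp used the median in place of the mean foreground signal. No fraction was measured on a second array.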
